A study of Homo sapiens with 4 samples.

Results

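The genes described here are those of pre-mRNA splicing on the Affymetrix HG-U95Av2 array: the hnRNPs, the SR proteins, the proteins of the spliceosomal snRNPs, the SF3A, SF3B and U2AF subunits, the PRPF proteins and a few named regulators. They were found by symbol. A gene belonged if its symbol began with HNRNP, SRSF, SNRP, SF3A, SF3B, U2AF or PRPF, or was SF1, PTBP1, TRA2A, TRA2B, SUGP2, SRRM1, SRRM2, RBM5, RBM10 or RBM39. The rule found 62 of the 8225 genes on the array, read by 86 probe sets, and 58 of these were among the 3588 genes that reached a log2 value of 5 on at least 1 array. PTBP1 had no probe set annotated to it alone and is not among them. HNRNPDL, SNRPD1, SF3B1 and PRPF18 stayed below 5 on all 4 arrays, between 2.48 for SNRPD1 and 4.68 for SF3B1, and are not described further.

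Messenger RNA was measured in LS180 cells, a human cell line from a colon carcinoma. A Tet-off construct in them turns RBM35A on once doxycycline (Dox) is withdrawn. RBM35A, now named ESRP1, is itself a splicing regulator that binds RNA and is found mainly in epithelia. The RBM35A+ cells had spent at least 6 days without Dox, and the RBM35A- cells, which the labels call parental, stayed in Dox. Whether the parental cells carried the construct, how many clones were used and the level of RBM35A reached are not given in the sources used here. Total RNA came from TRIZOL extraction and polysomal RNA, from transcripts loaded with several ribosomes, from sucrose gradients of cells washed with cycloheximide, which holds ribosomes on the message. The labels name the molecule as total RNA on the first kind of array and polyA RNA on the second, and their protocols describe no poly(A) selection. There was 1 array for each of the 4 combinations of state and fraction, so no difference below has a replicate check, and Dox, RBM35A and any difference between the cell populations cannot be told apart.

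No probe set (0) was annotated to RBM35A, and its level could not be checked against the labels. Of 12 intestinal epithelial markers on the array, 11 were at 5 or more on every array and KRT20 was at 2.44 or less. Of the fibroblast, endothelial and haematopoietic markers, COL1A1 and HBB alone reached 5 on any array. Among the array's RNA quality controls, the probe sets for the 5′ end of the ACTB and GAPDH messages read lower in RBM35A+ than in RBM35A- polysomal RNA, by −0.86 and −0.79 on the log2 scale. Those at the 3′ end differed by −0.02 and −0.13, and the 5′ ones differed by −0.05 and −0.03 in total RNA. This gap touches every polysomal difference between the states given below, and its part in them was not tested.

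Splicing removes introns in steps carried out by the spliceosome. The U1 snRNP marks the 5′ splice site, SF1 and U2AF bind the branch point and the 3′ splice site, and the U2 snRNP with SF3A and SF3B then replaces SF1. PRPF proteins act in the tri-snRNP and in the rearrangements that lead to catalysis, and a ring of Sm proteins is the shared core of the U1, U2, U4 and U5 particles. SR proteins generally promote the use of exons they bind, while hnRNPs coat nascent transcripts and often oppose exon use. Many SR protein and hnRNP genes control their own messages by splicing in exons that expose the RNA to nonsense-mediated decay. The arrays read the summed transcripts under each probe set and not their isoforms.

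Levels are log2 values, each list of values is in the order RBM35A- then RBM35A+, and differences are RBM35A+ minus RBM35A- on the same scale. A gene is called past the fold when it differed by at least 1.5-fold (0.58 on the log2 scale). In total RNA, 1 of the 58 genes was higher past the fold (SUGP2) and 0 were lower. Among all 3588 genes, 1.42% were higher and 0.613% lower. The median of the 58 was −0.02, with 24 above 0 and 33 below, beside a median of 0.00 over all genes. Of all genes, 46.5% lay above 0 and 45.6% below in total RNA. In polysomal RNA, SNRPA was higher past the fold, and HNRNPH1 and PRPF19 were lower. The shares over all genes were 0.725% higher and 1.23% lower, so the counts for splicing genes, 1 and 2 of 58, lie near the background. Their polysomal median was 0.03, with 34 above 0 and 20 below, beside 0.01 over all genes, of which 53.3% lay above 0 and 40.4% below. HNRNPA0, HNRNPF and U2AF2 were below 5 on both polysomal arrays and SF3B3 on both total ones, and they enter the medians there as 0. The spread, with differences between floored values kept as 0, was also like that of other genes. The SD of the difference over members was 0.206 in total and 0.238 in polysomal RNA, against 0.223 and 0.218 over all genes. Because the arrays of a fraction were normalized to each other, a shift shared by most genes would not be visible, and a level per cell cannot be told apart from a level per amount of RNA.

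**Figure D1:**
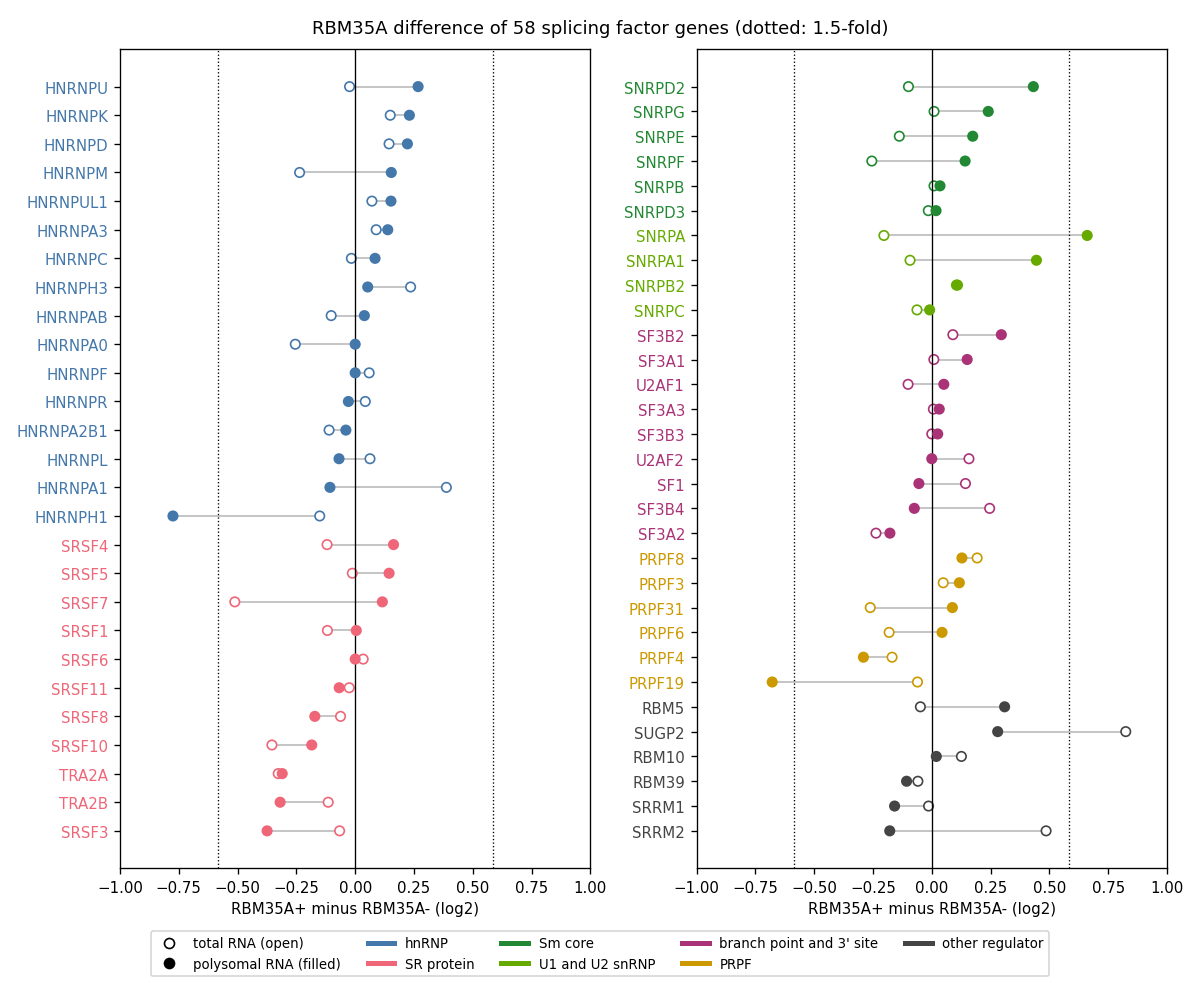
RBM35A+ minus RBM35A- difference (x axis, log2) of each of the 58 splicing genes in total RNA (open circles) and polysomal RNA (filled circles), coloured by role, 1 array per group. Most lie between the dotted lines at 1.5-fold; SUGP2 (0.82, total) is beyond them on the right with SNRPA (0.66, polysomal), and HNRNPH1 (−0.77) and PRPF19 (−0.68), both polysomal, on the left. Values below 5 on both arrays of a fraction are drawn at 0 (HNRNPA0, HNRNPF, U2AF2 in polysomal and SF3B3 in total RNA).

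As a measure of error, the disagreement between probe sets of the same gene gave an SD of 0.188 for 1 probe set's difference in total RNA and 0.195 in polysomal RNA, over 339 genes with several measured probe sets. This covers differences between probes and not between cultures. The differences of SUGP2, SNRPA, HNRNPH1 and PRPF19 were more than 3 times that SD. This follows from how they were picked, because 1.5-fold is itself about 3 times the SD, and it adds no support. Of the members, 42 of the 57 measured in total RNA lay within 1 SD of 0, as did 39 of the 55 measured in polysomal RNA. The same share over all genes was not computed, so these counts do not set the splicing genes apart from others.

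The start regions of some of the genes named in these results are shown because the first bases of a message bear on its loading with ribosomes and the bases before them on its synthesis. Each line gives 50 bases before to 20 bases from the annotated start, from RefSeq on GRCh38.p14, on the gene's own strand. Where a gene has several listed starts (3 for SUGP2 and SNRPD2, 2 for SRSF7, 4 for HNRNPH1) the one nearest the gene body is given. Capitals mark TATAAA, the TATA box motif, or CGGAAG, a core of ETS factor motifs. The windows of SRRM2 and SRSF10 were also read, held neither motif and are not shown. The printed windows are thus richer in these motifs than all those read.
SUGP2, chr19:19033498-19033567, minus strand: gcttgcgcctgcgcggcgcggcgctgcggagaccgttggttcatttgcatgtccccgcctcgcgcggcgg
SNRPA, chr19:40751153-40751222, plus strand: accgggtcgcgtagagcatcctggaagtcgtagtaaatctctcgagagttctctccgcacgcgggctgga
SNRPD2, chr19:45691934-45692003, minus strand: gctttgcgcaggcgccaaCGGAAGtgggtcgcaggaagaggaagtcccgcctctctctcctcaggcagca
HNRNPH1, chr5:179623382-179623451, minus strand: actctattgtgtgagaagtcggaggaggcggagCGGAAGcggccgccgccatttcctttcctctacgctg
PRPF19, chr11:60906566-60906635, minus strand: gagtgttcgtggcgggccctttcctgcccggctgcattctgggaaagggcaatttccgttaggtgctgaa
SRSF3, chr6:36594312-36594381, plus strand: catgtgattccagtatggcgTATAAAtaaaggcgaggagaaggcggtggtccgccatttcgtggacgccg
SRSF7, chr2:38751342-38751411, minus strand: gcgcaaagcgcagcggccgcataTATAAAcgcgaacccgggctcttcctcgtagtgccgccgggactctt

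RefSeq's promoter table gave 80 windows of 300 bases for 56 of the 62 genes. CGGAAG, searched on both strands, was in 39 of these windows (48.8%), from 31 genes, against 30.1% of the 4626 windows of all analysed genes and 19.5% of all 35116 windows. TATAAA on either strand was in 7 windows (8.75%) against 6.59% of those of analysed genes. CCAAT on either strand was in 30 windows (37.5%) against 35.2%. A start at C followed by at least 4 pyrimidines, the opening of the terminal oligopyrimidine messages whose translation follows growth signals, was found at 4 of the 80 listed starts (5%) against 6.33% for analysed genes. These 4 starts belong to HNRNPA0, SF3A2, SNRPA and SNRPD2. Their polysomal differences between the states ran both ways: 0.66 for SNRPA, 0.43 for SNRPD2 and −0.18 for SF3A2, with none measured for HNRNPA0. A match describes the letters in a window and shows no binding or use.

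The hnRNPs, of which 16 of 17 were analysed, were close to 0 in both fractions. Their median difference was 0.05 in total RNA (9 above 0, 7 below) and 0.05 in polysomal RNA (9 above, 5 below). HNRNPH1 stood lowest. This G-run binding protein, a close relative of HNRNPF, was at 6.78 and 6.63 in total RNA and at 7.12 and 6.35 in polysomal RNA. The polysomal RNA of RBM35A+ cells thus held 1.71-fold less of it, and the total RNA difference was −0.15. HNRNPA1, the best known antagonist of SR proteins at exon choice, was at 8.33 and 8.72 in total RNA and 10.23 and 10.13 in polysomal RNA, a difference of 0.39 in total RNA and −0.11 in polysomal RNA. Its total RNA difference was the highest among the hnRNPs and under 1.5-fold. HNRNPM, whose splicing targets overlap with those of ESRP1, was at 9.08 and 8.84 in total and 7.91 and 8.06 in polysomal RNA. The state difference had opposite signs in the fractions (−0.24 and 0.15), neither past the fold.

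HNRNPK and HNRNPL were among the brighter hnRNP probe sets and stayed under 1.5-fold. HNRNPK, a poly(C)-binding protein, differed by 0.15 in total and 0.23 in polysomal RNA. HNRNPL, which binds CA repeats, differed by 0.06 and −0.07. HNRNPC, a tetramer that packages nascent RNA, differed by −0.02 and 0.08, and HNRNPA2B1 by −0.11 and −0.04. HNRNPAB (−0.10 and 0.04), HNRNPD (0.14 and 0.22), HNRNPH3 (0.24 and 0.05), HNRNPR (0.04 and −0.03), HNRNPU (−0.02 and 0.27), HNRNPUL1 (0.07 and 0.15) and HNRNPA3 (0.09 and 0.14) completed the family members measured in both fractions. None of these 11 genes reached 1.5-fold. HNRNPA0 and HNRNPF were at 5 or more in total RNA alone, where they differed by −0.25 and 0.06, and their polysomal values, 4.37 to 4.74, allow no difference to be given.

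The SR proteins, all 11 of which were analysed, had 10 of their 11 total RNA differences below 0, with a median of −0.11, while 45.6% of all genes lay below 0. SRSF7, an SR protein with a zinc knuckle, was at 7.15 and 6.64 in total RNA, 1.43-fold lower in RBM35A+ cells, and at 6.10 and 6.22 in polysomal RNA. The polysomal difference, 0.12, had the other sign. SRSF10, which represses splicing when dephosphorylated, was at 8.08 and 7.72 in total and 8.94 and 8.76 in polysomal RNA, lower in RBM35A+ cells in both (−0.35 and −0.18). TRA2A, a sequence-specific activator of exons with GAA repeats, was at 5.88 and 5.56 in total and 6.03 and 5.72 in polysomal RNA, differences of −0.33 and −0.31. Its total RNA values lie close to the floor, and with the floor at 6 that difference is 0.00. The polysomal values lie on both sides of 6, so that floor shrinks the polysomal difference too. No SR protein reached 1.5-fold in total RNA (0 of 11).

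In polysomal RNA the SR proteins were divided, with 4 above 0, 6 below and a median of −0.07. SRSF3, the smallest SR protein and a factor in mRNA export as well as splicing, was at 12.37 and 12.30 in total RNA and 10.34 and 9.97 in polysomal RNA. Its polysomal difference of −0.37 was the lowest of the family, but its second probe set, without the shared sequence of the first, read 6.18 and 6.17, a difference of −0.02. TRA2B, the paralogue of TRA2A, differed by −0.11 in total and −0.32 in polysomal RNA. The remaining differences were small: SRSF1, the founding member, was at −0.12 and 0.00, SRSF4 at −0.12 and 0.16, SRSF5 at −0.01 and 0.14, and SRSF6 at 0.03 and 0.00. SRSF8 was at −0.06 and −0.17 and SRSF11 at −0.03 and −0.07.

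Of the snRNP proteins, SNRPA alone passed 1.5-fold. All 6 analysed proteins of the Sm ring had polysomal differences above 0, with a median of 0.16. Of the U1 and U2 proteins with SNRP symbols, 3 of 4 did, with a median of 0.28. Over all genes 53.3% lay above 0. Second probe sets of SNRPE and SNRPB lay below 0, at −0.22 and −0.03. SNRPA, which binds a stem-loop of U1 snRNA and also limits its own polyadenylation, was at 12.24 and 12.04 in total RNA and 12.29 and 12.95 in polysomal RNA. It was 1.58-fold higher in polysomal RNA of RBM35A+ cells and lower by −0.20 in their total RNA. SNRPA1, a protein of the U2 particle, was at 8.12 and 8.03 in total and 7.96 and 8.40 in polysomal RNA, a polysomal difference of 0.44. SNRPD2, an Sm ring subunit, was at 12.19 and 12.09 in total and 12.60 and 13.03 in polysomal RNA, a polysomal difference of 0.43. In all 3 of these genes the RBM35A+ polysomal array held the highest of the 4 values, and total RNA differed by −0.09 to −0.20.

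The remaining Sm proteins had smaller values. SNRPG differed by 0.01 in total and 0.24 in polysomal RNA, SNRPE by −0.14 and 0.17, and SNRPF by −0.25 and 0.14. SNRPB (0.01 and 0.03) and SNRPD3 (−0.01 and 0.02) were nearly level in both. Of the remaining U1 and U2 proteins, SNRPB2, of the U2 particle and a close relative of SNRPA, differed by 0.10 and 0.11, and SNRPC, of the U1 particle, by −0.06 and −0.01.

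The branch point and 3′ splice site proteins (9 of 10 analysed) showed no gene past the fold (0) in either fraction, with medians of 0.01 and 0.03. SF3B2 differed by 0.09 in total and 0.30 in polysomal RNA, the highest polysomal value of the group. SF3B4, a partner of SF3B2, differed by 0.25 and −0.07, and SF3A2, which contacts the U2 particle, by −0.24 and −0.18. SF1, the branch point binding protein, differed by 0.14 and −0.05. U2AF1, the small subunit that reads the AG at the intron end, differed by −0.10 and 0.05, while SF3A1 (0.01 and 0.15) and SF3A3 (0.01 and 0.03) were close to 0. U2AF2, the large subunit that binds the polypyrimidine tract, was at 5 or more in total RNA alone (0.16), and SF3B3 in polysomal RNA alone (0.03).

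Of the PRPF proteins, 6 of 7 were analysed. PRPF19, the ubiquitin ligase of the complex that activates the spliceosome, was at 8.75 and 8.69 in total RNA and at 6.86 and 6.18 in polysomal RNA. Its polysomal level was 1.60-fold lower in RBM35A+ cells, and its total RNA difference was −0.06. PRPF8, the scaffold at the catalytic centre, differed by 0.19 and 0.13, and PRPF6, of the U5 particle, by −0.18 and 0.04. PRPF31 (−0.26 and 0.09), PRPF3 (0.05 and 0.12) and PRPF4 (−0.17 and −0.29), which join the U4/U6 particle, stayed under 1.5-fold as well. The second PRPF4 probe set gave −0.20 in total RNA and 0.05 in polysomal RNA, the latter opposite in sign to the first.

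Among the 6 other regulators SUGP2, an SR-related protein with G-patch and SURP motifs, had the highest total RNA difference of all members. It was at 8.74 and 9.56 in total RNA, 1.77-fold higher in RBM35A+ cells, and at 12.29 and 12.57 in polysomal RNA, a difference of 0.28. SRRM2, a large coactivator of nuclear speckles, was at 8.30 and 8.79 in total RNA and 9.16 and 8.98 in polysomal RNA. The state difference was 0.49 in total RNA and −0.18 in polysomal RNA. RBM5, a regulator of exon choice in apoptosis genes, differed by −0.05 and 0.31. Its relative RBM10 differed by 0.13 and 0.02, RBM39 by −0.06 and −0.11, and SRRM1, a partner of SRRM2, by −0.01 and −0.16.

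**Figure D2:**
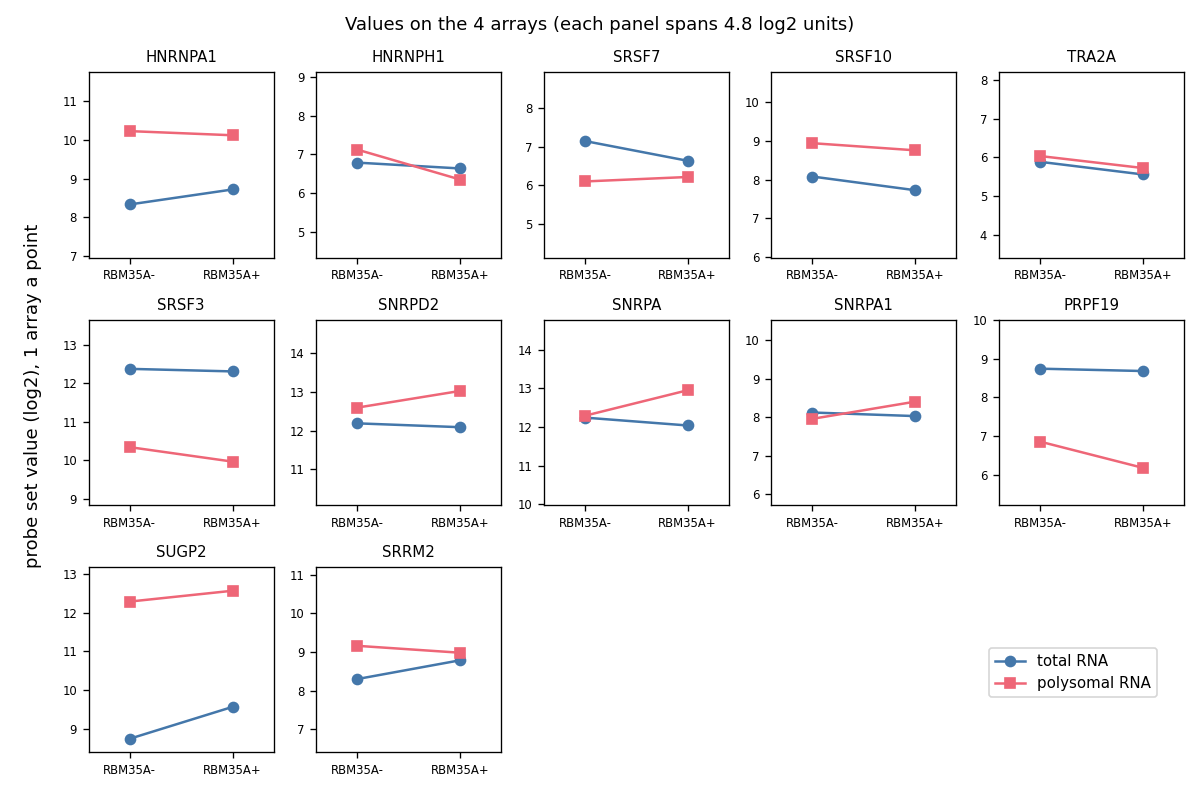
Log2 level (y axis) on each of the 4 arrays (x axis) of the members named by the fixed rule, 1 point per array. Lines join the states within a fraction; HNRNPH1 and PRPF19 slope down in polysomal RNA, SNRPA slopes up there, and SUGP2 slopes up most in total RNA.

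The difference of differences, the polysomal state difference minus the total one, asks whether a gene differed between states by unlike amounts in the fractions. It was higher past 1.5-fold for SNRPA (0.86) and SRSF7 (0.63), and lower for SRRM2 (−0.66), HNRNPH1 (−0.62) and PRPF19 (−0.62). Over all genes 1.31% were higher and 2.12% lower, against 2 and 3 of 58 here (3.45% and 5.17%). The SD of 1 probe set's value was 0.239. SNRPA1 (0.54) and SUGP2 (−0.54) were the next nearest to the fold. The 10 analysed Sm, U1 and U2 proteins with SNRP symbols lay above 0, while 52.6% of all genes did. Their medians were 0.27 for the ring and 0.30 for the U1 and U2 proteins. The lowest were SNRPB2, at 0.0044, and SNRPB, at 0.03. The second probe sets of SNRPB and SNRPE gave −0.01 and −0.22, the latter with both total RNA values under the floor. The sign was not shared by all U1 and U2 proteins. SNRNP70, a U1 protein outside the members, was at −0.10. The branch point and 3′ splice site group, which holds SF3A and SF3B, had 6 above 0 and 3 below, the lowest SF3B4 (−0.32). The members' values contain their polysomal and total differences already given and add no separate evidence. Across the 54 members measured in both fractions, total and polysomal differences had a Pearson r of 0.114 and the same sign in 29. Over all 3123 such genes r was 0.290, and 59.2% had the same sign. Both are descriptions over genes that share 4 arrays.

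**Figure D3:**
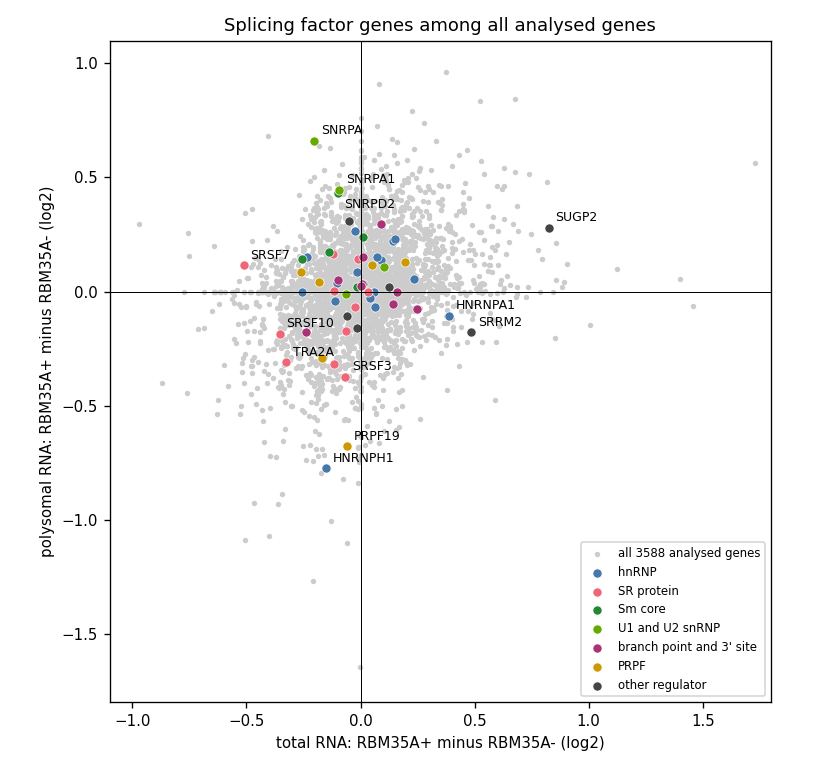
Polysomal difference (y axis, log2) against total RNA difference (x axis, log2) between RBM35A states for the analysed genes (grey) and the splicing genes (coloured by role). SNRPA lies near the upper edge of the grey cloud at 0.66, HNRNPH1 (−0.77) and PRPF19 (−0.68) near its lower edge and SUGP2 (0.82) toward its right; most other splicing genes sit in its centre.

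Levels in the fractions were compared within each state relative to the median of all analysed genes, because the total and polysomal arrays were normalized apart. In RBM35A- cells 6 of the 58 genes were higher in polysomal RNA by 2-fold or more and 8 lower, against 12.1% and 9.59% of all genes. In RBM35A+ cells 7 were higher and 6 lower, against 12.4% and 9.28%. RBM5 was at 6.54 and 6.49 in total RNA and at 9.55 and 9.86 in polysomal RNA, and for SUGP2 too both polysomal arrays lay far above both total ones. SUGP2 was 11.0-fold higher in the polysomal RNA of RBM35A- cells and RBM5 7.55-fold, and both stayed high in RBM35A+ cells (2.92 and 3.28 on the log2 scale). RBM39 (1.18 and 1.14), HNRNPA1 (1.81 and 1.32) and PRPF4 (1.51 and 1.39) were also higher by 2-fold in both states. RBM10 was at 1.09 and 0.99. At the other end SRSF3 was 4.34-fold lower in RBM35A- cells, at −2.12 and then −2.42 in RBM35A+ cells, PRPF19 was at −1.98 and −2.59, and SRSF8 at −1.75 and −1.86.

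HNRNPC (−1.14 and −1.03) was lower by 2-fold in both states, while HNRNPM (−1.26 and −0.86) and SRSF7 (−1.14 and −0.50) were so in RBM35A- cells alone. HNRNPA0 was at −1.37 and −1.11 and U2AF2 at −1.64 and −1.79, where their floored polysomal values make the size a lower bound. The hnRNPs as a group lay low, with medians of −0.38 and −0.39 and 12 and 13 of 16 below 0, whereas the SR proteins were at 0.06 and 0.08. The Sm proteins were at 0.23 in RBM35A- and 0.66 in RBM35A+ cells, where SNRPF (1.36) and SNRPG (1.13) passed 2-fold. The SD of 1 probe set was 0.732 here, several times that of the state differences, so a single gene's position between fractions is less certain. For SRSF3 the other probe set gave −0.80 and −0.55, well short of the first, and for PRPF4 (0.27 and 0.53) and HNRNPC (−0.88 and −0.67) it stayed under 2-fold in both states. For RBM5 it gave 2.55 and 2.46, and for SF1, whose first probe set was under 2-fold, at least 2.23 and 2.21 against floored total RNA values. Without probe sets of shared sequence, which stand for HNRNPA1, HNRNPC, SRSF3 and SRSF8 among others, 51 members remained and the lower counts became 5 and 3. The extraction method and any poly(A) selection differed between the fractions and cannot be told apart from ribosome loading. The 5′ control probe sets were far lower in polysomal than in total RNA, before centring by −4.51 and −5.32 for ACTB and −1.83 and −2.59 for GAPDH, while the 3′ ones differed by −0.14 to −0.30. The part of this gap in the positions of the splicing genes was not tested.

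**Figure D4:**
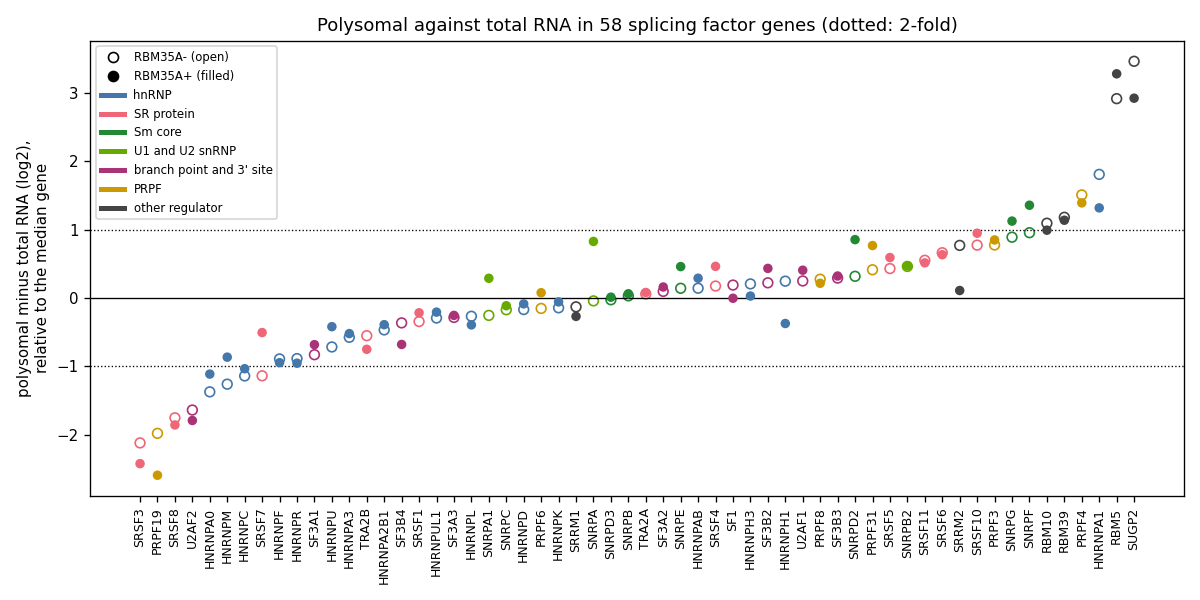
Polysomal minus total level (log2, relative to the median of all analysed genes) of the splicing genes in RBM35A- and RBM35A+ cells. SUGP2 and RBM5 are highest in both states and SRSF3 and PRPF19 lowest; HNRNPA0, HNRNPF, U2AF2 and SF3B3 rest on values raised to the floor of 5.

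Agreement between probe sets of the same gene was partial. Of the 62 genes, 19 had several probe sets and 12 had at least 2 that were measured. With values under 5 raised to 5, none (0) of the 12 had probe sets as far apart as 1.5-fold in either fraction. Few state differences reached that size. The second HNRNPU probe set read 4.49 and 5.12 in total RNA, so its difference of 0.12 is a lower bound. Without the floor this pair would lie past 1.5-fold in total RNA. In HNRNPA3, SF1 and SNRPE (total RNA) and HNRNPU and SRSF1 (polysomal RNA), 1 probe set was under 5 on both arrays. The gap there is unknown. After values were raised to the floor, the widest gaps were 0.38 in total RNA (RBM5) and 0.39 in polysomal RNA (SNRPE). These are about as large as many of the differences given above. For SRSF1 the second probe set read 6.09 and 5.63 in total RNA (−0.46), lower than the −0.12 of the first. SRSF10 gave −0.23 and −0.20 from its second probe set, close to the −0.35 and −0.18 of the first. RBM5 gave 0.33 in total RNA from its second probe set, opposite in sign to the first, and 0.24 in polysomal RNA. For SNRPE the second probe set gave −0.22 in polysomal RNA at levels of 5.25 and 5.03, near the floor, where the first gave 0.17. SUGP2, SNRPA, SNRPA1, SNRPD2, HNRNPH1, PRPF19, SRSF7 and SRRM2 each rest on 1 measured probe set. Probe sets marked as sharing sequence with related transcripts (HNRNPA1, HNRNPA2B1, HNRNPA3, HNRNPC, SRSF3, SRSF5, SRSF6, SRSF8, TRA2B, SNRPB, SNRPE and PRPF31) are uncertain as to gene. SF3A2 was read by a probe set with another suffix (_i). It was grouped with these and left out with them wherever probe sets of shared sequence were left out.

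**Figure D5:**
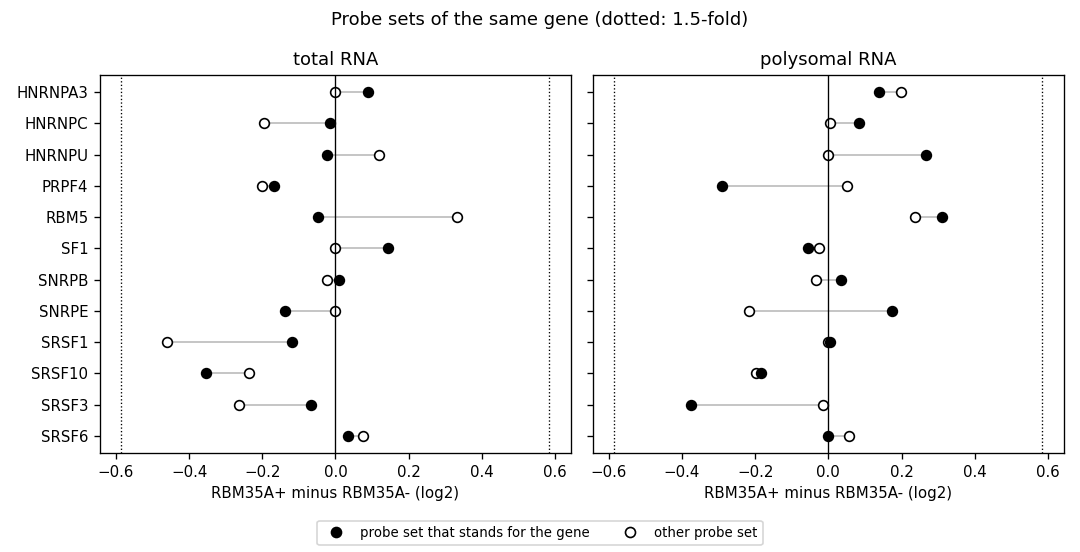
RBM35A+ minus RBM35A- difference (x axis, log2) in total RNA and in polysomal RNA for the 12 splicing genes with at least 2 measured probe sets; filled circles are the probe set that stands for the gene and open circles the other one. No pair is 1.5-fold apart; SRSF1 and RBM5 are the widest in total RNA.

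The additive model, a limma fit of RBM35A state and fraction over all 4 arrays, called 0 of the 3588 genes (0%) at a Benjamini-Hochberg adjusted p of 0.05, and 369 genes (10.3%) had an unadjusted p under 0.05. With 1 residual degree of freedom it measures how alike a difference was in the fractions and not how it would vary between cultures. Of the 58 splicing genes 4 had an unadjusted p under 0.05 (1 higher, 3 lower), below the share over all genes. SUGP2 had a mean difference of 0.55 with a standard error of 0.148 and an adjusted p of 0.386 in limma. TRA2A was at −0.32 with a standard error of 0.100, HNRNPH1 at −0.46 with 0.160, and SRSF10 at −0.27 with 0.106, with adjusted p from limma of 0.442, 0.442 and 0.469. All 4 had the same sign in both fractions, which the selection favours, because the residual of the model is the gap between the fractions' differences.

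Further genes of splicing, a fixed list of snRNP, helicase, exon junction, SR kinase and RNA-binding protein genes, were set beside the members. Of these, 77 were on the array and 62 were analysed. In total RNA none (0) was past 1.5-fold, with a median of −0.01 and a range from −0.38 for SNW1 to 0.50 for SFPQ. In polysomal RNA CIRBP, a cold-inducible RNA-binding protein, was lower (−0.74) and none was higher, with a median of 0.02. The highest, EIF4A3, the helicase of the exon junction complex, was at 0.46. The difference of differences was past the fold upward for SNW1 (0.67) and EIF4A3 (0.62) and downward for CIRBP (−0.73), with a median of 0.00. Higher polysomal than total levels by 2-fold were found for 11 of the 62 in RBM35A- cells (17.7%, against 12.1% of all genes) and 12 in RBM35A+ cells (19.4%, against 12.4%). Lower ones were found for 3 in each (4.84%, against 9.59% and 9.28%). The higher genes included PNN (2.65 in RBM35A- cells), SFPQ (2.35), and CLK1 (2.10), a kinase of SR proteins.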

How the data were processed

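The deposited values are log2 expression values per probe set, made by the authors; the submitters' processing notes name GCRMA, of a version not given in the sources used here. Within a fraction the sorted values of both arrays matched to 6.61e-06, and between fractions they were up to 0.227 apart, so each pair had been quantile normalized apart from the other. Per the labels' protocols, 10 µg of RNA was labelled per array. Of 12626 probe sets, 10943 had 1 gene symbol, and 10934 of these were updated by gene ID through RefSeq's GRCh38.p14 gene table. A gene was represented by its brightest probe set on average over the 4 arrays, and values under 5 were raised to 5. Where both values were raised the difference is unknown and reads 0, and with 1 raised value it is a lower bound. Differences were counted at 1.5-fold between states and at 2-fold between fractions. The additive model used limma 3.58.1 in R 4.3.3 (lmFit, eBayes). Its code was run on simulated data with changes alike in both fractions and larger than any difference of the splicing genes between the states. That run does not show whether changes of the size seen here could be found. Values on all arrays are given for genes past 1.5-fold, for the 3 highest and lowest in each state comparison, and for HNRNPM and RBM5, which were chosen after their values were seen. The members and gene lists were chosen with earlier results of these data known. The number of arrays limits the precision.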

Additional observations from a re-analysis of the deposited data

Results flagged for a closer look

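In 3 of the splicing genes the state difference had opposite signs in the fractions and the fractions' differences lay at least 1.5-fold apart. With 1 array per group this was not tested. The share of all genes with this pattern was not computed, and a large gap between the fractions' differences itself favours opposite signs. The polysomal differences of SRSF7 (0.12) and SRRM2 (−0.18) lay within the SD of 1 probe set there (0.195). The total RNA difference of SNRPA (−0.20) was close to the SD in total RNA (0.188). SNRPA, lower in RBM35A+ total RNA and higher in RBM35A+ polysomal RNA, had a difference of differences of 0.86. SRSF7, with the same signs, was at 0.63. SRRM2, higher in RBM35A+ total RNA and lower in RBM35A+ polysomal RNA, was at −0.66.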

How the results depend on the processing

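The alternatives were a floor of 4 or 6, no floor or filter, the mean of a gene's probe sets, no probe sets of shared sequence, removal of a trend with level, the annotation's own symbols and, between the fractions, no centring. All 125 alternative values of the named genes kept their side of the fold and none (0) reversed. Much of this was fixed in advance. SUGP2, SNRPA, SNRPA1, SNRPD2, HNRNPH1, PRPF19, SRSF7 and SRRM2 each rest on 1 measured probe set above every floor. Their values changed only when the trend was removed. TRA2A in total RNA came to 0.00, with no direction, under a floor of 6, and SRSF3 in polysomal RNA moved to −0.19 with the mean of its probe sets and −0.02 without shared sequence. Of 119 values for the member lists and the additive model, 116 stayed close to the first value (medians within the SD of 1 probe set, counts within 1.5 times). Without probe sets of shared sequence, members lower in polysomal than in total RNA by 2-fold numbered 5 in place of 8 in RBM35A- cells and 3 in place of 6 in RBM35A+ cells, with 51 members left. Without a floor the additive model called 15 genes in place of 0, none a splicing gene. The members' median stayed between −0.02 and −0.01 in total RNA and between 0.02 and 0.04 in polysomal RNA. Between the fractions it ran from −0.0011 to 0.14 in RBM35A- and from 0.03 to 0.16 in RBM35A+ cells, with 5 to 8 and 6 to 10 members higher by 2-fold. With 1 array per group no array could be left out. Signal near the floor limits what can be said of HNRNPA0, HNRNPF, U2AF2, SF3B3 and TRA2A.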
